A study of Homo sapiens with 6 samples.

Results

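Of the 60611 genes counted in EndoC-BH5, an established human pancreatic beta-cell line, 8 genes with a lower level after cytokine exposure are described here. They are SYNDIG1L, LMO3, CSDC2, BCYRN1, NHERF4, ENTPD3, AARD and PLCE1, of which NHERF4 stands in the count table under its former symbol PDZD3. The 8 were chosen by name for their change between the same 6 libraries, so this change is given as a description and without a test. All 8 passed the filter on low counts that left 17847 genes for testing. RNA was sequenced from 3 libraries of cells given vehicle and from 3 libraries of cells given interferon gamma together with interleukin 1 beta. All libraries came from the same line with the genotype label WT, and neither cytokine doses nor the length of exposure are given in the sources used here. Because the measurement is of bulk RNA, fewer cells of a kind and less RNA per cell cannot be told apart.

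Interferon gamma signals through JAK kinases, and interleukin 1 beta signals through MYD88 to NF-kappaB, and both are made by immune cells in the inflamed islet. Much of what is known of this response in beta cells concerns genes that rise, such as those for antigen presentation, while genes of the mature beta-cell state tend to be lower. The 8 genes do not form a pathway. ENTPD3 encodes NTPDase3, an enzyme of the cell surface that breaks down extracellular nucleotides and that marks beta cells in adult human islets. PLCE1 encodes phospholipase C epsilon, which small GTPases of the Ras and Rap families activate and which makes the messengers inositol trisphosphate and diacylglycerol. NHERF4 encodes a PDZ-domain scaffold that binds membrane transporters and receptors. SYNDIG1L encodes a membrane protein related to SYNDIG1, a partner of AMPA-type glutamate receptors. LMO3 encodes a LIM-domain co-regulator of transcription, and CSDC2 an RNA-binding protein with a cold-shock domain. BCYRN1 gives BC200, a small cytoplasmic RNA made by RNA polymerase III that represses translation. AARD encodes a protein rich in alanine and arginine whose role is little described.

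Total counts ranged from 5871481 to 16175364 per library, with vehicle replicate 1 the shallowest. Levels are given in CPM, a count relative to the TMM-scaled total of its library, where TMM corrects for composition. A log2 change is that of cytokine over vehicle with its standard error (SE) from an edgeR quasi-likelihood fit over all tested genes. Whether the replicates were grown as separate cultures is not stated, so errors and p-values measure only how far these libraries differ, and that spread may be technical. All 10 listed beta-cell markers were detected at 1 CPM or more in vehicle, with INS at 4012 CPM. Summed levels of the beta-cell markers ranged from 9538 to 10220 CPM in vehicle and from 13363 to 14015 CPM in cytokine libraries. Most of the higher sum came from IAPP, at 3807 to 4192 and 8093 to 8477 CPM, and PCSK1, at 638 to 674 and 1075 to 1151 CPM, while 7 of the 10, INS among them, had a lower mean with cytokines. The line also carried RNA of TTR at 1884 CPM and SST at 555 CPM, which are listed for alpha and delta cells. The summed alpha-cell markers ranged from 1887 to 2046 CPM in vehicle and from 1930 to 2083 CPM in cytokine libraries, and the 3 delta-cell markers from 540 to 608 CPM and from 568 to 607 CPM. Most of the alpha-cell sum was TTR, whereas GCG had 43.5 to 46.2 CPM in vehicle and 24.8 to 26.9 CPM with cytokines. Of the 5 alpha-cell markers, 3 had a higher mean with cytokines and 2 a lower one. The 4 ductal markers ranged from 151 to 169 CPM and from 131 to 141 CPM. The 5 acinar markers stayed at or below 6.35 CPM in sum with PRSS1 at 0 counts in all libraries, and the 3 endothelial markers at or below 0.936 CPM. The 5 mesenchymal markers went from 3.31 to 4.97 CPM in vehicle to 15 to 16 CPM in cytokine libraries, mostly by PDGFRB. The 4 immune markers went from 8.02 to 8.13 CPM to 22.9 to 24.6 CPM. Of these 4 only CD68 had a higher mean with cytokines, and the other 3 had a lower one. The part of these cell-type markers in the levels of the 8 genes was not tested.

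The sequences below are annotated gene starts, and which start was in use was not measured, since counts are per gene. Of the 8 genes, 4 had an entry in the RefSeq promoter table for GRCh38.p14, with 8 windows in all, since LMO3 has 5 starts. A window covers 250 bases before and 50 bases after a start. The promoters of SYNDIG1L and ENTPD3 are shown because they are rich in G and C, and the first LMO3 promoter because it is not. That window, at 40.0%, has the lowest share of G and C of the 5 LMO3 windows. A link between this share and the change in RNA was not tested. Capitals mark the GC box GGGCGG on either strand, and all are written from 5′ to 3′ on the strand of the gene. SYNDIG1L lies on the minus strand with its window at chr14:74426161-74426460, ENTPD3 on the plus strand at chr3:40386934-40387233, and LMO3 on the minus strand at chr12:16608165-16608464.
SYNDIG1L: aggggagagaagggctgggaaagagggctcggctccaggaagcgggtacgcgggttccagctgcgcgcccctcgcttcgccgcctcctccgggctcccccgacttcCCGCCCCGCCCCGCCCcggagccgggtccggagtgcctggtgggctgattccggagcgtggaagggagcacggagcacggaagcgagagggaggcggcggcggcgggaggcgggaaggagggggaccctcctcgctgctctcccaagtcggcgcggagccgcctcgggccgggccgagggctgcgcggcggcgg
ENTPD3: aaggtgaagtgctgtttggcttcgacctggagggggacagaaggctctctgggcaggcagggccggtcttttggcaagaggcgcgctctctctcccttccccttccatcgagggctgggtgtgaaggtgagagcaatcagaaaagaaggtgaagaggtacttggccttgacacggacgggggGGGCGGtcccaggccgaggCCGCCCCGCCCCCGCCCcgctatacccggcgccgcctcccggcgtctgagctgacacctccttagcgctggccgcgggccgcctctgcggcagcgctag
LMO3: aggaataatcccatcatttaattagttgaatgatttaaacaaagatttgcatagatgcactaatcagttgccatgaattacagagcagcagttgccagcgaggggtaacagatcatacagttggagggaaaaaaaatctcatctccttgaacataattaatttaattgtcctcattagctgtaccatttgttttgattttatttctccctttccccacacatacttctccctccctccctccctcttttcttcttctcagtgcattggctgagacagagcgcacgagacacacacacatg

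The share of G and C was 76.7% in the SYNDIG1L window and 67.3% in the ENTPD3 window, against a median of 58.7% over 35116 promoter windows of the same length. It was at most 52.0% in the 5 LMO3 windows and 36.7% in the PLCE1 window at chr10:94088776-94089075, which lies inside the annotated gene. The SYNDIG1L window held 39 CpG pairs, the ENTPD3 window 24 and the first LMO3 window 3, and the median over all windows was 14. GC boxes were found 3 times in SYNDIG1L, 4 times in ENTPD3 and once in 1 of the LMO3 windows, and 45.0% of all windows hold one. No window of the 4 genes held the GAS motif TTCNNNGAA, which 7.66% of all windows hold, or the interferon response motif of GAAA, any 2 bases and GAAA, which 3.57% hold. None held the NF-kappaB motif of GGGA, any base and TTTCC, which 0.558% hold, or TATAAA, which 11.5% hold. Both strands were searched, and GGGCGG matches may overlap each other. A lack of these letters describes only these windows.

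Of the BCYRN1 transcript, only 1 of 151 stretches of 50 bases occurred in a GENCODE transcript of another gene (BUB3). Even so, the deposited BCYRN1 counts carried fractions in 3 of 6 libraries, more than for any other of the 8 genes. These were the 3 vehicle libraries, at 19.67, 101.58 and 102.5 counts, while the cytokine libraries held whole counts of 6, 8 and 18. How these fractions arose is not given in the sources, so the BCYRN1 values are less certain than the others.

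**Figure D1:**
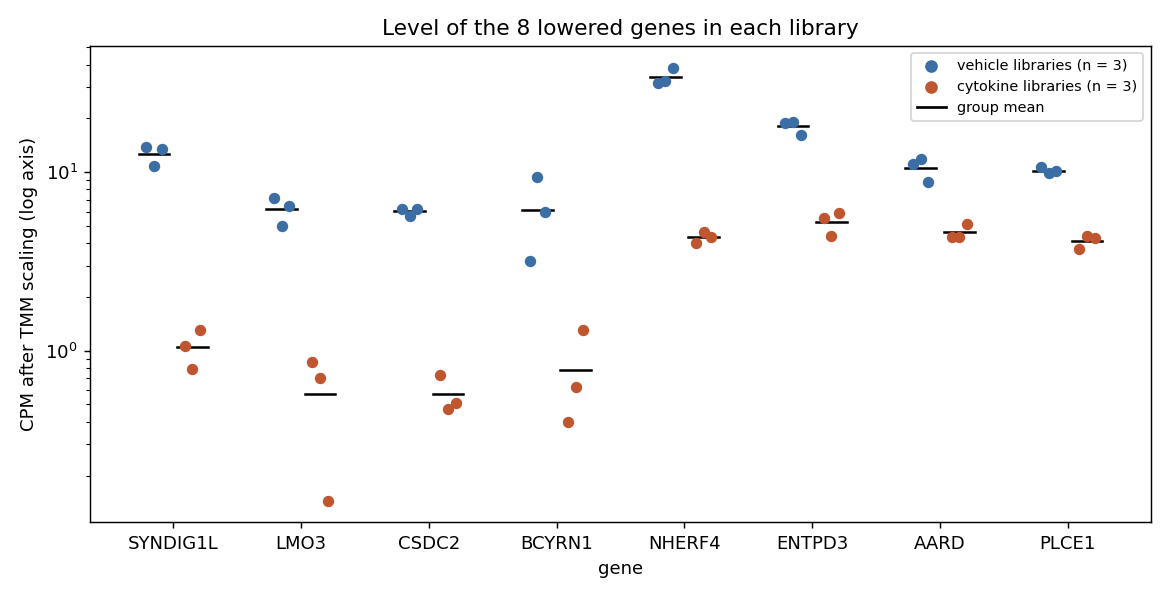
CPM on a log axis for the 8 genes, with 1 point per library (3 vehicle, 3 cytokine) and a bar at each group mean. In every gene all vehicle points lie above all cytokine points, with the widest scatter within a group in BCYRN1 and in the cytokine libraries of LMO3.

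In each of the 8 genes every cytokine library was below every vehicle library, as in 30.8% of all tested genes, and the reverse held in 30.3%. Of all tested genes, 57.1% were called in either direction and 28.8% lower (edgeR, adjusted p below 0.05), 4.30% were called lower by at least 2-fold and 0.0784% by at least 8-fold. All 8 genes were lower by at least 2-fold and 5 of them by at least 8-fold, shares that the choice of the genes fixes. The median log2 change was -3.04 over the 8 genes and -0.02 over all tested genes.

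SYNDIG1L lies on chromosome 14 at 74405893 to 74426102 and was the lowest in log2 change of all 13612 tested genes that reached 5 CPM in either group. Its level was 13.8, 10.8 and 13.4 CPM in vehicle replicates 1, 2 and 3, and 1.07, 0.786 and 1.30 CPM in cytokine replicates 1, 2 and 3. Each vehicle library was at least 8.32 times as high as each cytokine library. The means were 12.7 ± 1.61 and 1.05 ± 0.259 CPM (SD, n = 3 each), a log2 change of -3.57 with SE 0.175, or 11.8-fold. The cytokine values rest on 10 to 18 counts per library, and their coefficient of variation of 24.6% was close to the 26.3% that counting alone gives.

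LMO3 lies on chromosome 12 at 16548373 to 16610594 and was next in rank. Its level was 7.15, 4.96 and 6.49 CPM in the vehicle libraries and 0.865, 0.707 and 0.145 CPM in the cytokine libraries, in the order of replicates 1, 2 and 3. The last of these rests on 2 counts and stood well below the other cytokine libraries. The log2 change was -3.38 with SE 0.271, or 10.4-fold, and it was 7.59-fold without cytokine replicate 3 and 14.3-fold without cytokine replicate 1. MGST1, which overlaps LMO3 on the other strand, had at most 3 counts in any library.

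CSDC2 lies on chromosome 22 at 41560763 to 41577741. It had 6.20, 5.70 and 6.20 CPM in the vehicle libraries and 0.732, 0.472 and 0.507 CPM in the cytokine libraries. The vehicle libraries varied by 4.80%, less than the 13.1% that counting alone gives at 39 to 106 counts. This closeness is therefore no measure of how well the level repeats. The log2 change was -3.36 with SE 0.223, or 10.3-fold. CSDC2 and LMO3 thus had nearly the same level in both groups, at 6.03 and 6.20 CPM in vehicle and 0.570 and 0.573 CPM with cytokines. PMM1, a mannose-phosphate enzyme gene on the other strand, overlaps exons of CSDC2, and no source used here gives the strand setting of the counting. PMM1 went from 68.1 ± 0.918 to 51.0 ± 3.63 CPM, or -0.42 in log2 units at an edgeR adjusted p of 2.7e-07.

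BCYRN1 lies on chromosome 2 and had 3.18, 9.37 and 5.97 CPM in the vehicle libraries and 0.399, 0.629 and 1.30 CPM in the cytokine libraries. Vehicle replicate 2 was 2.95 times as high as vehicle replicate 1, and cytokine replicate 3 was 3.26 times as high as cytokine replicate 1. The spread in vehicle was 50.3% of the mean where counting alone gives 12.9%, the largest excess among the 8 genes. The log2 change was -3.07 with SE 0.467, or 8.37-fold, and 12.6-fold without cytokine replicate 3. The lowest vehicle library was still 2.44 times as high as the highest cytokine library.

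NHERF4 lies on chromosome 11 at 119185457 to 119190223 and was the most abundant of the 8 genes in vehicle by CPM. Its level was 31.6, 32.3 and 38.5 CPM in the vehicle libraries and 3.99, 4.64 and 4.34 CPM in the cytokine libraries. Each cytokine library held 59 or 60 counts, and the means were 34.1 ± 3.80 and 4.33 ± 0.322 CPM (SD, n = 3 each). The log2 change was -3.01 with SE 0.106, or 8.08-fold, so NHERF4 had the smallest SE of the 8. CCDC153 overlaps exons of NHERF4 on the other strand, and 12.2% of the 50-base stretches of NHERF4 transcripts occur there. CCDC153 had 3.62 ± 0.701 and 2.50 ± 0.725 CPM, well below NHERF4 in vehicle.

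ENTPD3 lies on chromosome 3 at 40387156 to 40428744. It had 18.9, 19.1 and 16.2 CPM in the vehicle libraries and 5.53, 4.40 and 5.94 CPM in the cytokine libraries. The lowest vehicle library was 2.73 times as high as the highest cytokine library. The log2 change was -1.73 with SE 0.114, or 3.33-fold. The long antisense transcript ENTPD3-AS1, which spans the gene on the other strand, had 5.48 ± 0.301 and 5.53 ± 0.932 CPM and did not pass (edgeR, adjusted p = 0.98).

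PLCE1 lies on chromosome 10 at 94030812 to 94332823, the longest of the 8 genes. It had 10.6, 9.83 and 10.1 CPM in the vehicle libraries and 3.73, 4.40 and 4.27 CPM in the cytokine libraries. The vehicle libraries varied by 4.04%, less than the 10.1% from counting alone. The log2 change was -1.30 with SE 0.125, or 2.46-fold. Of the 7 annotated genes that overlap it, 6 had a row in the count table and none of these reached more than 1 count in any library. AARD lies on chromosome 8 at 116938199 to 116944487 and had 11.1, 11.9 and 8.77 CPM in the vehicle libraries and 4.33, 4.32 and 5.14 CPM in the cytokine libraries. Its log2 change of -1.15 with SE 0.137, or 2.2-fold, was the smallest of the 8, and vehicle replicate 3 was 1.71 times as high as cytokine replicate 3.

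**Figure D2:**
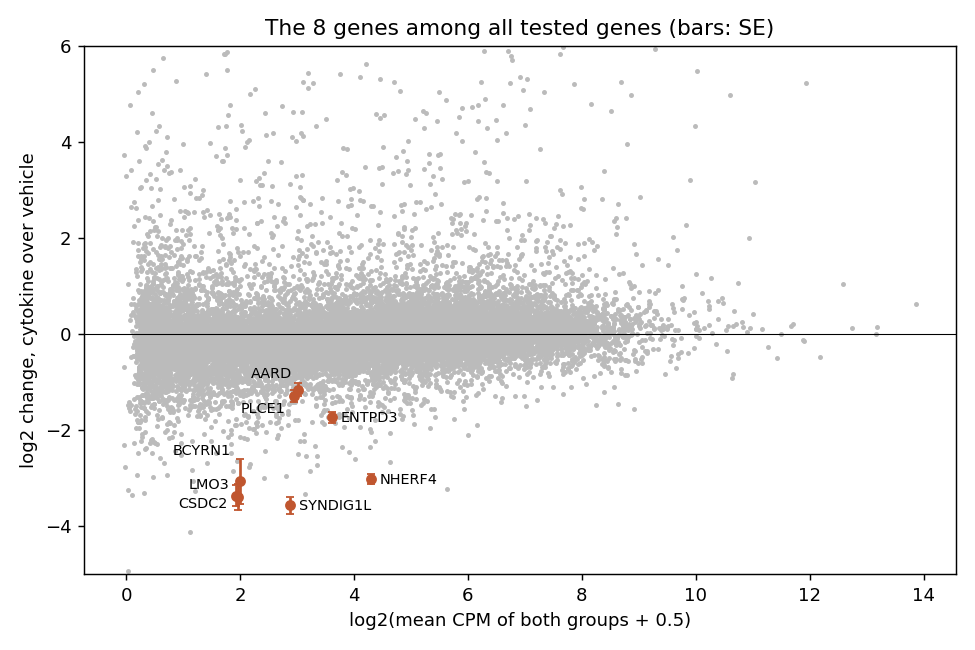
Log2 change of cytokine over vehicle against log2(mean CPM of both groups + 0.5) for all tested genes (grey) and the 8 genes (red, bars are SE); 69 genes lie outside the plotted range. SYNDIG1L, LMO3, CSDC2, BCYRN1 and NHERF4 sit at or below -3.01, and ENTPD3, PLCE1 and AARD between -1.73 and -1.15.

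Among the 8 chosen genes the changes were of 2 sizes, but other tested genes lie between these, such as G6PC2 at -2.67. Of the 8, 5 stand among the most strongly lowered of all tested genes, and the choice of the genes fixes both traits. Among tested genes that reached 5 CPM in either group, SYNDIG1L, LMO3 and CSDC2 were the lowest, and BCYRN1 and NHERF4 stood at ranks 6 and 7. The phosphatase gene DUSP9 and the non-coding LOC100506474 stood between them with log2 changes of -3.34 and -3.23. The order of the lowest genes is not firm, since SYNDIG1L, LMO3, CSDC2 and DUSP9 had SEs of 0.175, 0.271, 0.223 and 0.159. Without cytokine replicate 1, LMO3 at -3.84 was below SYNDIG1L at -3.56. ENTPD3 stood at rank 78, PLCE1 at 195 and AARD at 266 of the same 13612 genes. The next genes after NHERF4 were CTD-3080P12.3 at -2.99, SOCS2 at -2.95 and FAM20A at -2.85, followed by RNF213-AS1, LINC00870, CHRNB4, NPR1 and G6PC2 between -2.84 and -2.67. In the authors' deposited table the log2 changes of the 8 genes ran from -3.56 for SYNDIG1L to -1.17 for AARD. There the CSDC2 value of -3.36 was below the LMO3 value of -3.24, and the BCYRN1 value was -3.23.

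Measured as CPM per kilobase of annotated exon in vehicle, the order was BCYRN1 at 30.9, NHERF4 at 8.92, ENTPD3 at 5.0, SYNDIG1L at 4.86, AARD at 4.39, CSDC2 at 1.86, PLCE1 at 0.789 and LMO3 at 0.604. The libraries of ENTPD3 and SYNDIG1L overlapped on this scale, as did those of SYNDIG1L and AARD, while the other neighbours in the order did not. With cytokines the order was BCYRN1 at 3.89, AARD at 1.91, ENTPD3 at 1.46, NHERF4 at 1.13, SYNDIG1L at 0.403, PLCE1 at 0.320, CSDC2 at 0.175 and LMO3 at 0.0558. There BCYRN1 and AARD overlapped, and SYNDIG1L and PLCE1. AARD moved from the fifth to the second place and NHERF4 from the second to the fourth, as their unequal changes require. The exon length of LMO3 sums many alternative exons, which lowers its level per kilobase. BCYRN1 has only 200 exon bases, which raises its level per kilobase. Before division by length it had 6.17 CPM in vehicle, where NHERF4 had 34.1 CPM. The median vehicle level of the 8 genes was 10.4 CPM and that of all tested genes 19.6 CPM.

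The profile over the 6 libraries, taken as log2(CPM + 0.5) centred on its mean, was compared with all other tested genes that have a symbol. The 3 nearest genes by root mean square distance were LOC100506474, DUSP9 and NHERF4 for SYNDIG1L, at 0.153 to 0.247. They were CTD-3080P12.3, NPR1 and CSDC2 for LMO3, CHRNB4, G6PC2 and FAM20A for CSDC2, and DUSP9, SOCS2 and G6PC2 for NHERF4. For BCYRN1 they were CYYR1, SOCS2-AS1 and SYT2, at 0.429 to 0.455, the largest distances found. ENTPD3 was nearest to GPR149, AQP7 and PACSIN1 at 0.0897 to 0.101, AARD to SHISA2, KCNK5 and TSPAN11 at 0.0440 to 0.0683, and PLCE1 to MME, IGSF9B and CASKIN1 at 0.0461 to 0.0552. Since the group difference dominates each profile, these distances mostly describe the size of the change.

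**Figure D3:**
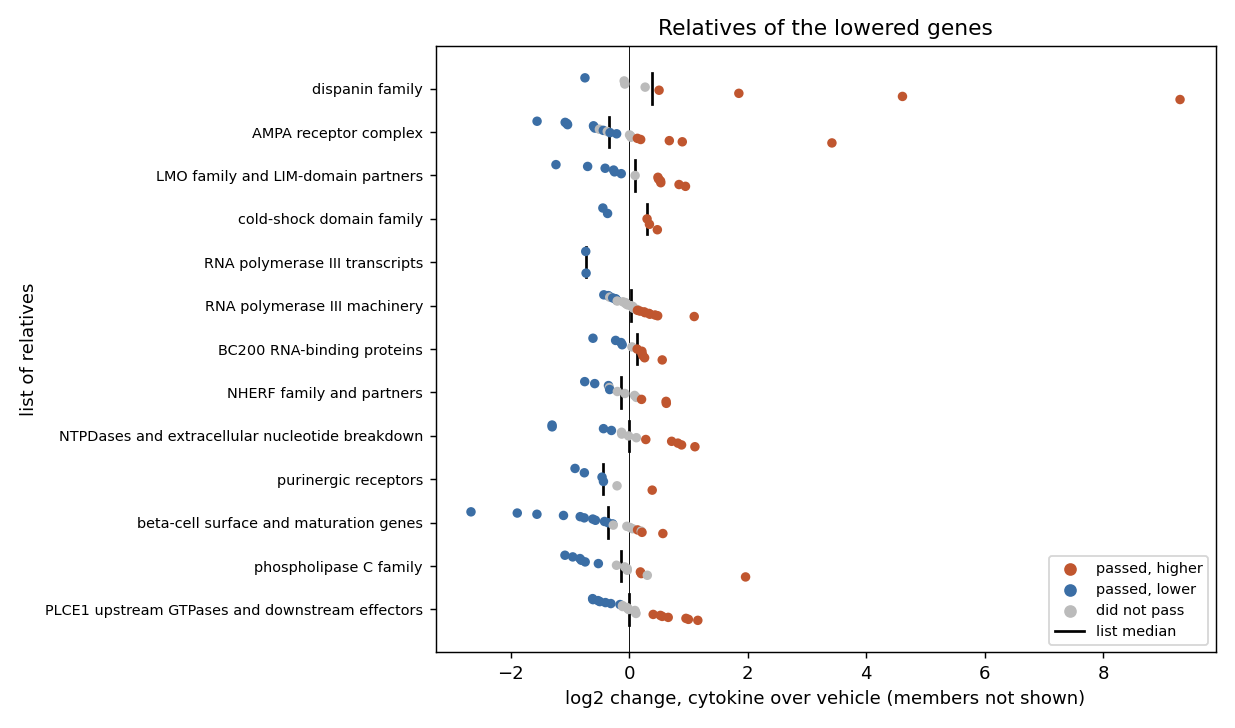
Log2 change of the tested relatives in 13 lists, with 1 point per gene, colour by whether the gene passed the edgeR test and a bar at each list median; the value of IFITM1 rests on 0 vehicle counts and depends on the fit. All lists but the RNA polymerase III transcripts spread to both sides of 0, and only G6PC2 lies below -2.

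Relatives of the 8 genes were not used to choose them and were tested. All lists were drawn up with earlier results of these libraries known, so the shares below are no independent evidence. The 13 lists name 239 genes, of which 175 were tested. Of these 68 were lower, 55 were higher and 52 did not pass (edgeR, adjusted p below 0.05), or 38.9% lower against 28.8% and 31.4% higher against 28.3% of all tested genes. At least 2-fold lower were 12 of the 175, or 6.86% against 4.30%, and none was at least 8-fold lower. With scaling by library size alone, which moves the median of all tested genes from -0.02 to -0.22, 101 relatives were lower and 33 higher.

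SYNDIG1, the nearest relative of SYNDIG1L, had 9.09 ± 0.605 and 8.43 ± 0.158 CPM, and it did not pass (log2 change -0.08, edgeR, adjusted p = 0.57), although it passed with library size scaling (-0.29, adjusted p = 0.024). Of 12 genes of the dispanin family, to which both belong, 8 were tested, of which 4 rose and PRRT1 fell, by 0.74 on the log2 scale (edgeR, adjusted p = 0.0037). The family also holds the interferon-induced membrane genes. IFITM1 went from 0 counts in vehicle to 6.22 ± 0.406 CPM, at least 71.2-fold higher when the vehicle group is set to 3 counts in all. IFITM3 went from 2 counts in vehicle to 69, a ratio of 28.5 whose 95% counting interval is 7.58 to 240. With library size scaling 3 of the 8 rose and 2 fell.

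Of 20 tested genes of the AMPA receptor complex, 10 fell, 5 rose and 5 did not pass, with a median log2 change of -0.34. Library size scaling gave 14 lower and 3 higher, with a median of -0.55. NPTX2, a secreted pentraxin that clusters these receptors, went from 723 ± 24.1 to 247 ± 5.75 CPM, which is -1.55 ± 0.0409 (SE) in log2 units at an edgeR adjusted p of 1.2e-23. The auxiliary subunit gene CACNG5 fell by 1.08 on the log2 scale, from 43.7 ± 3.54 to 20.9 ± 1.69 CPM. NPTX1 rose from 2.31 to 4.29 CPM, and SHISA9 had 3 counts in vehicle and 43 with cytokines, a ratio of 11.8 with a 95% counting interval from 3.78 to 59.6.

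LMO1, the closest relative of LMO3, went from 33.5 ± 2.25 to 14 ± 1.16 CPM, which is -1.23 ± 0.0806 (SE) in log2 units at an edgeR adjusted p of 7.2e-14. LMO4 went the other way, from 42.3 ± 0.793 to 81.6 ± 2.25 CPM (log2 change 0.95, edgeR, adjusted p = 2.7e-15). Of 13 tested LMO genes and LIM-domain partners, 6 fell, 6 rose and 1 did not pass. ISL1, a LIM-homeodomain factor of islet cells, fell by 0.70 on the log2 scale, and NHLH2, a helix-loop-helix factor, rose by 0.84. Of 5 tested relatives of CSDC2 with a cold-shock domain, 3 rose and 2 fell, and library size scaling gave 2 and 2 and DESeq2 2 and 1. CARHSP1, the nearest to CSDC2, fell by 0.44 and YBX2 by 0.36 (lost with DESeq2, adjusted p = 0.223, and in edgeR without vehicle replicate 3, 0.0693, or cytokine replicate 1, 0.0691), while YBX1 rose by 0.34 on the log2 scale.

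Of 13 other RNA polymerase III transcripts listed beside BCYRN1, only RN7SL1 and RN7SL2, RNAs of the signal recognition particle, were tested, and the others had at most 6 counts in any library. RN7SL1 had 25.4, 25.4 and 29.8 CPM in the vehicle libraries and 14.2, 18.4 and 17.2 CPM in the cytokine libraries, which is -0.73 ± 0.0894 (SE) in log2 units at an edgeR adjusted p of 5.3e-08. RN7SL2 fell by 0.73 as well, from 41.0 ± 4.79 to 25.6 ± 4.39 CPM. These are near-identical copies whose reads can be shared. Their vehicle libraries varied by 9.54% and 11.7%, where those of BCYRN1 varied by 50.3%. All 29 genes of the RNA polymerase III machinery were tested, with 9 that rose and 7 that fell, while library size scaling gave 3 and 17 and DESeq2 7 and 4. POLR3D, a subunit of the enzyme, rose from 37.5 ± 2.46 to 80.4 ± 4.77 CPM (log2 change 1.10, edgeR, adjusted p = 1.5e-15), and POLR3GL fell by 0.43. SSB, the La protein that binds the ends of such transcripts, rose by 0.48 and BRF2 fell by 0.35, a call lost with DESeq2 (adjusted p = 0.0603). Of 11 proteins known to bind BC200, 6 rose and 4 fell, among them FMR1 by 0.56 upward and EIF4B, which fell by 0.61. With library size scaling 1 rose and 5 fell, and PCBP1, which rose by 0.26 with TMM, did not pass (log2 change 0.061, edgeR, adjusted p = 0.258).

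PDZK1, which encodes another NHERF scaffold, went from 72.7 ± 1.82 to 43.1 ± 0.374 CPM, or -0.75 in log2 units at an edgeR adjusted p of 6.5e-13. NHERF1 fell by 0.33, and NHERF2 had 19.0 ± 3.20 and 15.9 ± 1.06 CPM and did not pass (edgeR, adjusted p = 0.096), but passed with library size scaling (log2 change -0.40, adjusted p = 0.0011), with the replicate block (0.023) and without vehicle replicate 3 (0.0027). NHERF1 and NHERF2 are named here outside the rule, as the rest of the family. Of 12 tested genes of the NHERF family and its partners, 4 fell, 3 rose and 5 did not pass, and library size scaling gave 6 and 2. EZR and MSN, which link such scaffolds to actin, rose by 0.62 and 0.63, and the anion exchanger SLC26A6 fell by 0.58 on the log2 scale.

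Among genes that handle extracellular nucleotides beside ENTPD3, 13 were tested, with 5 that rose, 4 that fell and 4 that did not pass. Library size scaling gave 4 higher and 6 lower, and DESeq2 5 higher and 2 lower. NT5E, the enzyme that turns AMP to adenosine, went from 14.4 ± 1.25 to 5.72 ± 0.578 CPM, which is -1.30 ± 0.111 (SE) in log2 units at an edgeR adjusted p of 3.3e-11. The nucleoside transporter SLC29A1 fell by 1.30 as well, from 161 ± 8.57 to 64.9 ± 2.22 CPM (edgeR, adjusted p = 1.9e-19). PANX1, a channel that releases ATP, rose from 14.7 to 31.7 CPM, and ENPP2 from 361 to 668 CPM. The other NTPDase genes did not move together, since ENTPD4 and ENTPD6 rose by 0.82 and 0.72 while ENTPD8 and ENTPD5 fell by 0.43 and 0.30 on the log2 scale. With DESeq2, ENTPD8 (adjusted p = 0.0834) and ENTPD5 (adjusted p = 0.0788) did not pass, nor did ENTPD8 in edgeR without cytokine replicate 1 (adjusted p = 0.0527). These 4 are picked out with their values already known, not by the rule for named genes. ENTPD1 was not among the tested genes. Of 6 tested purinergic receptor genes, 4 fell and P2RX4 rose, by 0.39, and with DESeq2 1 fell and 1 rose. P2RX6 fell by 0.91. The ADORA1 call (log2 change -0.75, edgeR, adjusted p = 0.016) was lost with DESeq2 (adjusted p = 0.0928), and in edgeR without vehicle replicate 1 (0.0822) and without cytokine replicate 1 (0.126) or 2 (0.0579).

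Of 19 tested genes of the beta-cell surface and of maturation, listed because ENTPD3 is one, 11 fell, 3 rose and 5 did not pass, with a median log2 change of -0.35. Library size scaling gave 15 lower and 1 higher, with a median of -0.56. As with the other lists, this one was drawn up with earlier results of these libraries known, so its direction is no independent evidence. G6PC2, an islet glucose-6-phosphatase, had 42.4, 39.4 and 44.3 CPM in vehicle and 6.86, 6.52 and 6.52 CPM with cytokines, or -2.67 in log2 units at an edgeR adjusted p of 1.7e-21. MAFA, a transcription factor of mature beta cells, went from 5.16 ± 1.03 to 1.46 ± 0.131 CPM. SIX2 rose by 0.57, and PTPRN by 0.22 on the log2 scale, a call lost with library size scaling (log2 change 0.017, edgeR, adjusted p = 0.673).

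Of 14 tested relatives of PLCE1 in the phospholipase C family, 6 fell, 3 rose and 5 did not pass, and library size scaling gave 8 lower and 1 higher. PLCH2 fell by 1.08, from 13.8 ± 1.11 to 6.49 ± 0.316 CPM (edgeR, adjusted p = 6.4e-10), and PLCD1 by 0.95. PLCH1, of the same eta type as PLCH2, rose from 7.67 ± 0.155 to 30.1 ± 1.86 CPM, which is 1.97 ± 0.0901 (SE) in log2 units at an edgeR adjusted p of 1.4e-17. PLCG1 rose by 0.21, which did not pass with library size scaling (log2 change 0.0039, edgeR, adjusted p = 0.941). Of 23 tested GTPases that act on PLCE1 and effectors that act after it, 7 rose and 7 fell, and library size scaling gave 6 and 13. RAPGEF4, the cyclic AMP sensor Epac2 that activates Rap, fell by 0.61, and ITPR2, an inositol trisphosphate receptor, by 0.62. RAPGEF2, another activator of Rap, rose by 1.00 and PRKD2, a kinase that diacylglycerol activates, by 1.16 on the log2 scale.

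**Figure D4:**
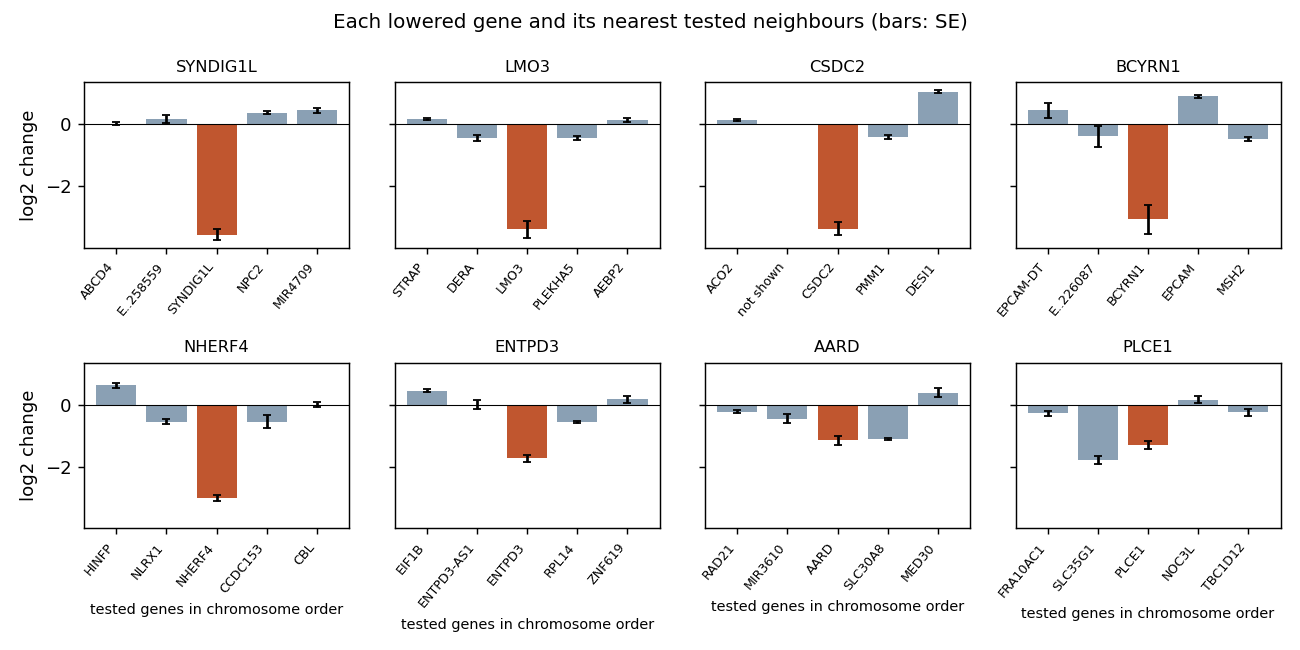
Log2 change with SE of each of the 8 genes (red) and of the 2 nearest tested genes on each side in chromosome order (grey-blue), with IDs of unnamed genes shortened and 1 neighbour of CSDC2 not shown. SLC30A8 beside AARD and SLC35G1 beside PLCE1 are the neighbours at or below a log2 change of -1.

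The neighbours of the 8 genes along the chromosome were tested in the same fit. Of 32 tested neighbours, 13 were lower, 9 were higher and 10 did not pass (edgeR, adjusted p below 0.05), or 40.6% lower against 28.8% of all tested genes. Their median log2 change was -0.004, and 6 were higher and 16 lower with library size scaling. MIR3610, MIR4709 and ENSG00000258559 lie within RAD21, NPC2 and ABCD4 on the same strand. Both genes of each pair are counted among the 32, so these are not separate observations. With TMM scaling, the 4 neighbours of every one of the 8 genes except SYNDIG1L held log2 changes of both signs. The sign of small changes depended on the setting. Beside PLCE1 only NOC3L was positive, at 0.159, which did not pass (edgeR, adjusted p = 0.19) and reached -0.044 among the alternatives. Beside SYNDIG1L, ENSG00000258559 went from 0.148 to -0.055 with library size scaling. Next to CSDC2, PMM1 fell as given above, while DESI1 just beyond it rose from 41.0 ± 1.46 to 84.9 ± 2.29 CPM. BCYRN1 lies 9.64 kb before EPCAM, a cell adhesion gene, which went from 269 ± 5.67 to 496 ± 19.9 CPM (log2 change 0.88, edgeR, adjusted p = 2.8e-17). On the other side of BCYRN1, ENSG00000226087 did not pass (edgeR, adjusted p = 0.32), nor did EPCAM-DT, which spans BCYRN1 on the other strand (adjusted p = 0.12).

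Next to NHERF4, NLRX1 fell by 0.55 on the log2 scale and HINFP rose by 0.61. The CCDC153 call (log2 change -0.56, edgeR, adjusted p = 0.023) was lost with DESeq2 (adjusted p = 0.226) and in edgeR without vehicle replicate 3 (0.275) or cytokine replicate 3 (0.182). ENTPD3 lies before RPL14, a ribosomal protein gene, which fell by 0.56. Beside SYNDIG1L, NPC2 rose by 0.37 and ENSG00000258559 did not pass (edgeR, adjusted p = 0.35). The tested genes nearest to LMO3, DERA and PLEKHA5, lie 511 kb and 2519 kb away and fell by 0.46 and 0.45.

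AARD ends 5.79 kb before SLC30A8, on the same strand, which encodes the zinc transporter of insulin granules. SLC30A8 had 518 ± 16.6 and 241 ± 5.90 CPM, which is -1.11 ± 0.0411 (SE) in log2 units at an edgeR adjusted p of 7.1e-20, where that of AARD was -1.15 with SE 0.137. On the other side of AARD, MIR3610 fell by 0.46 (edgeR, adjusted p = 0.0082), a call lost with DESeq2 (adjusted p = 0.173) and in edgeR without vehicle replicate 3 (0.0864) or cytokine replicate 3 (0.0639). MIR3610 lies within RAD21 on the same strand, so its counts may include reads of RAD21, which fell by 0.23. PLCE1 begins 74.8 kb after the end of SLC35G1, a membrane transporter gene on the same strand. SLC35G1 went from 11.3 ± 1.68 to 3.33 ± 0.226 CPM, which is -1.79 ± 0.135 (SE) in log2 units at an edgeR adjusted p of 1.8e-12. NOC3L, which lies 0.403 kb beyond PLCE1 on the other strand, had 10.5 ± 0.800 and 11.6 ± 0.828 CPM and did not pass (edgeR, adjusted p = 0.19).

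**Figure D5:**
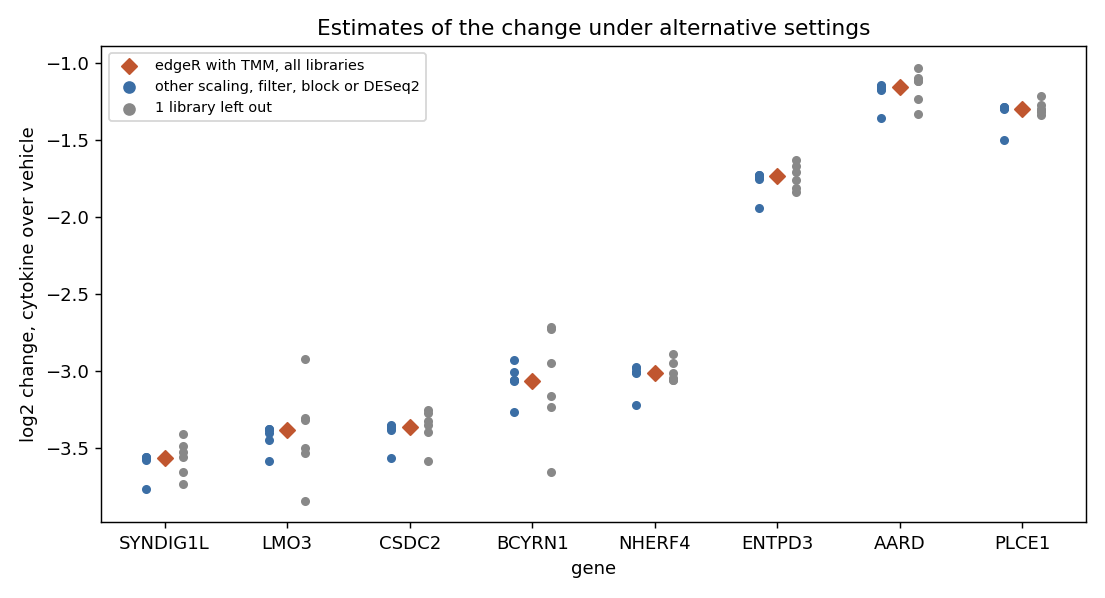
Log2 change of the 8 genes with edgeR and TMM scaling (red diamonds), under 6 other settings (blue) and with each of the 6 libraries left out (grey). All values lie at or below -1.03, and the widest ranges are those of BCYRN1, from -3.66 to -2.71, and LMO3, from -3.84 to -2.92.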

How the data were processed

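RNA was sequenced from 3 vehicle and 3 cytokine libraries of EndoC-BH5, grouped by the sample titles. The authors deposited 1 table of 60611 genes holding raw estimated counts, some with fractions, as the values and the file headers show. Between 67.3% and 73.5% of counts above 0 in a library lay within 0.005 of a whole number. Columns named NT were taken as vehicle, since the other 3 carry the cytokine name. Per the submitters' processing notes, the tools were STAR 2.7.5a, cutadapt 2.10, HTSeq 0.12.4, MultiQC 1.9, Picard 2.23.2 and FastQC 0.11.9 on GRCh38, without roles. Neither annotation release nor strand setting is stated in the sources used here. Beside the counts, the authors deposited log2 fold changes, a mean log2 CPM, an F score, a p-value and an FDR per gene, per the file headers; only their log2 fold changes were used.

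Estimated counts were rounded. filterByExpr left 17847 genes, scaled by TMM and tested with edgeR 4.0.16 (R 4.3.3), robust quasi-likelihood on group, with Benjamini-Hochberg adjustment at 0.05. The SE is the change divided by the square root of F. The 8 genes and all lists were chosen with earlier results of these data known, so the 8 genes received no test. Named relatives were up to 2 higher and 2 lower genes per list past the test, ordered by absolute change, where the higher group reached 1 CPM. Named neighbours were the nearest tested gene on each side and any of the 2 per side changed by at least 1.5-fold. The 15 lowest genes that reached 5 CPM in either group were also named. Coordinates came from GENCODE 29 on GRCh38, with 17593 tested genes matched, and promoters from RefSeq. A simulation at the size of this comparison altered 200 of 17847 genes. It returned 176 calls, 6 of them false, and found 100% of genes altered by 1 in log2 units. That share does not cover smaller changes. In the real libraries 57.1% of tested genes were called, a far larger part than was altered in the simulation. The simulation therefore cannot vouch for the real calls. Chi-square per gene between replicates was 1.34 to 2.32, so no pair was counted as 1. Intervals and floors cover counting error only. Alternatives were DESeq2 1.42.0 and its size factors, library size alone, no filter, 1 CPM in 3 libraries, a replicate block, a threshold of 0.01 and each library left out. A few items are not reported here.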

Additional observations from a re-analysis of the deposited data

How the results depend on the processing

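The log2 change of each of the 8 genes stayed negative under 12 alternatives each, a sign that the choice of the genes favours. Of these 96 values, 88 lay within 1 SD of the gene's own replicate spread, so wide scatter hides shifts. BCYRN1 stayed within it at 12.6-fold without cytokine replicate 3, against 8.37-fold with all libraries. PLCE1 moved beyond it at 2.83-fold with library size alone, against 2.46-fold with TMM. The median over the 8 genes, -3.04, became -3.24 with scaling by library size alone and ranged from -3.14 to -2.83 with 1 library left out. Of all tested genes, 5057 were higher and 5142 lower. With library size alone 2980 were higher and 8779 lower, and 25.3% of calls were higher in place of 49.6%. With DESeq2 4276 were higher and 3356 lower. Of the relatives, 55 were higher, and 33 with library size alone. Called relatives and neighbours otherwise stayed within 1.5 times their counts, at 54 to 101 relatives lower, 6 to 10 neighbours higher and 11 to 16 neighbours lower. The cause of these shifts was not tested. Of 66 named relatives and neighbours, 8 lost a call under at least 1 alternative and none reversed its direction with a call; YBX2 lost its call with DESeq2 (adjusted p = 0.223), at the threshold of 0.01, and in edgeR without vehicle replicate 3 (0.0693) or cytokine replicate 1 (0.0691). Libraries with the same replicate number deviated with correlations of 0.082, 0.049 and -0.11 over 11431 genes. For libraries with unlike numbers the correlations ranged from -0.13 to 0.11. Whether replicates were handled in pairs cannot be told from so few libraries. With the replicate block 5010 genes were higher and 5101 lower, and the median of the 8 genes was -2.96. Levels below 1 CPM, as in LMO3 and CSDC2 with cytokines, rest on 2 to 13 counts per library, which limits their precision.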
